A study of Mus musculus with 12 samples.

Results

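The genes described here flank Mib1 and Asxl3 on mouse chromosome 18. They are the protein-coding genes whose start lies between 7000000 and 30000000 on the build GRCm38, apart from Mib1, Asxl3, Gata6, Dsg2, Dsc2 and Cdh2. Start here means the lower coordinate of a gene on either strand, so for genes on the minus strand it is where transcription ends. The annotation placed 75 protein-coding genes in the interval, and 69 remained after those 6 exceptions, out of 38293 genes in the deposited table. The rule uses position alone, although it was set with earlier results of these data known. Of the 69 genes, 49 had enough reads to be tested and 20 did not.

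Mib1 encodes a ubiquitin ligase that Notch ligands need in the cells that present them, and Asxl3 encodes a chromatin protein that works with the deubiquitinase BAP1. A gene close to an altered locus is inherited together with it through crosses, so carriers of an engineered allele can also carry variants of neighbouring genes from the strain in which the allele was made. Neighbours of an altered gene are therefore measured beside it to look for differences that travel with the chromosome copy.

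RNA was sequenced from pooled heart ventricles of mouse embryos (E15.5). There were 4 genotypes with 3 pools each, and a pool combined 4 pairs of ventricles. WT embryos carried none of the alleles. The triple heterozygote carried the stop allele Mib1 R530X and missense alleles of Asxl3 (M1415V in the genotype labels, M1361V in the protocol) and Apcdd1 (V150I), each on 1 chromosome copy. The Cre control carried 1 loxP-flanked (flox) and 1 normal copy of Mib1 together with Tnnt2-Cre, a driver of recombination in cardiomyocytes. The Mib1 mutant carried the R530X allele over the flox copy together with the same driver. Both Cre groups thus share a flox copy of Mib1 and Tnnt2-Cre, and both stop allele groups share R530X, which is present in every cell and does not depend on Cre. All 3 altered genes lie on chromosome 18, and the labels do not say whether the missense alleles sit on the same copy as the stop allele, nor on which strain background each line was kept. The flox allele, Tnnt2-Cre and the line they were bred in cannot be told apart. Whether pools shared litters is not given in the sources used here, so the p-values measure the spread between these pools.

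Library totals ran from 10103548 estimated reads to 22157720 in triple heterozygote pool 2, so that a single read stood for 0.0452 to 0.0991 CPM (reads of a gene relative to the library total, scaled so that libraries compare). Mib1 itself, as a check of the labels, was at 145, 126 and 136 CPM in the WT pools, 74, 57.9 and 74.1 in the triple heterozygote, 108, 107 and 101 in the Cre control and 54.8, 50.1 and 51.8 in the Mib1 mutant. All 10 cardiomyocyte markers were read in every pool, with a summed level of 39812 to 55055 CPM. Xist, the RNA that coats the inactive X, was near 0 in Cre control pool 1 (0.387 CPM) and Mib1 mutant pool 1 (0.095 CPM). P-values were computed with the quasi-likelihood test of edgeR, adjusted by the Benjamini-Hochberg method over all 13964 genes tested, and are called the edgeR adjusted p. A gene is called where it is under 0.05, and differences are log2 fold changes with their standard error (SE).

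The flanking genes are a mixture of roles, and most of those tested were transcribed at moderate levels. Their mean level over the 12 pools ran from 1.61 to 258 CPM, with a median of 31. Levels between genes were compared as CPM per kb of exon, where the range was 0.367 to 36.2 and the median 5.16. The highest levels on that scale belonged to Snrpd1 (36.2), a core protein of the spliceosome, and Fhod3 (32.5), a formin that organises actin in the sarcomere. Next came Galnt1 (28.5), which starts O-linked glycosylation, Mapre2 (25.3), a protein of growing microtubule ends, and Ccny (21.9), a membrane-bound cyclin. Of the 17 tested genes for transcription, chromatin, RNA and DNA repair the median level was 7.06 CPM per kb. It was 4.17 for the 12 signalling and ubiquitin genes and 3.58 for the 7 genes listed under membrane traffic and lipid handling.

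**Figure D1:**
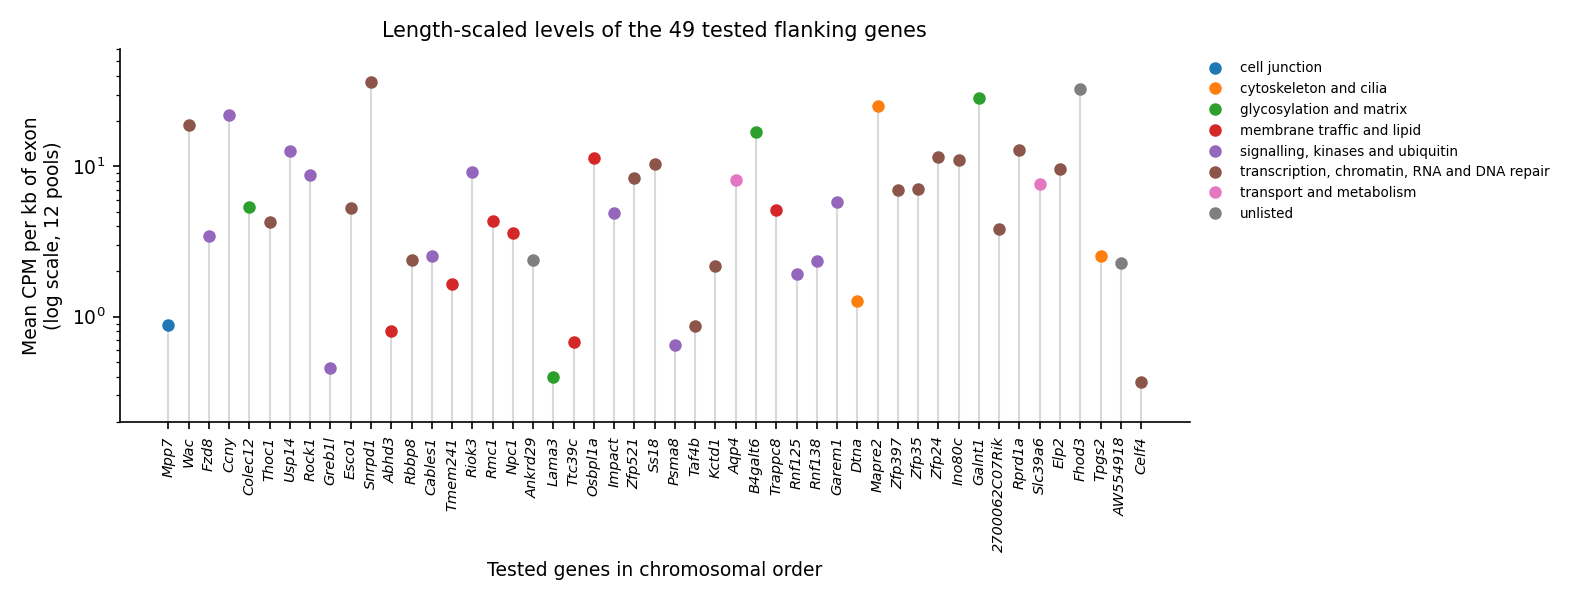
Mean CPM per kb of exon over 12 pools (log scale) for the 49 tested genes in chromosomal order, coloured by role. Snrpd1 (36.2) and Fhod3 (32.5) were at the top and Celf4 (0.367) at the bottom.

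The 20 genes that were not tested had almost no reads in these ventricles. Cetn1, Chst9, Dsc1, Dsg4, Mep1b and Ccdc178 had no read in any pool, and the other 14 reached between 0.0842 CPM (Dsg1b) and 0.859 CPM (Mocos, a molybdenum cofactor sulfurase) in their highest pool. All 7 desmosomal cadherins among the 69 genes, which are known from skin and other stratified epithelia, were in this group. So was Ttr, which encodes the thyroid hormone and retinol carrier made by the liver. It lay between 0.0966 and 0.709 CPM, and its highest pool, Cre control pool 2, also held 0.709 CPM of the liver gene Alb. WT pool 2 held 9.6 CPM of Alb and 0.589 CPM of Ttr. Other pools did not pair them: triple heterozygote pool 3 held 0.595 CPM of Ttr and 0.0991 CPM of Alb. Cre control pool 3 held 2.91 CPM of Alb and 0.203 CPM of Ttr. The 3 genes that start within 1 Mb of Asxl3, Klhl14, Ccdc178 and Nol4, were all too low to test, so the immediate surroundings of Asxl3 could not be examined. At the ends of the interval the nearest tested genes inside were Mpp7 (17.9 CPM) and Celf4 (3.15 CPM), and the nearest tested genes outside were Mkx (0.624 CPM) and Pik3c3 (27.3 CPM).

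Most tested genes varied little between genotypes. The ratio of the highest to the lowest group mean had a median of 1.17 over the 49 genes and exceeded 1.5 in 7 of them. Those 7 were Psma8 (2.61), a testis-type proteasome subunit, Celf4 (1.87), an RNA-binding protein, Ttc39c (1.60), Fzd8 (1.60), Tmem241 (1.55), Rnf125 (1.53) and Greb1l (1.51). The coefficient of variation within groups was 54.2% for Psma8 and 32.4% for Celf4, both of low level, but 8.83% for Ttc39c, 9.52% for Fzd8 and 7.86% for Tmem241. At the other end, Thoc1 (1.01), a subunit that couples transcription to mRNA export, and Ss18 (1.03), a chromatin remodelling subunit, had nearly equal means in the 4 groups.

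The first question was whether genes linked to the stop allele differ where that allele is present. Between the Mib1 mutant and the Cre control, which share the flox copy and differ in whether the other copy carries R530X, 1 of the 49 genes was called (Aqp4, higher), beside 1.5% of all genes tested. Pools of these groups did not overlap for 8 of the 49 genes, 6 higher and 2 lower, beside 16.6% of all genes (8.86% higher and 7.75% lower). At an unadjusted p under 0.05 there were 5, or 10.2% of the 49 beside 14% of all genes. In the triple heterozygote against WT, none of the 49 was called by edgeR, limma-voom or DESeq2, beside 0.0215% of all genes by edgeR. At an unadjusted p under 0.05 there were 6, or 12.2% of the 49 beside 8.66% of all genes, and pools did not overlap for 13, 2 higher and 11 lower, beside 16.9% of all genes (7.67% higher and 9.19% lower). These comparisons share no pool. The 49 genes had the same sign in both for 17 (34.7%), beside 44.2% of all genes, and the differences had Pearson's r = -0.21 across the 49 genes, which share their libraries and are not independent. In the mean of both stop allele groups minus the mean of both groups without it, none of the 49 was called by any of these tools, beside 0.58% of all genes by edgeR, 5 had an unadjusted p under 0.05 (10.2%, beside 10.2% of all genes) and for none did the 6 pools with the allele lie wholly on 1 side of the 6 without, beside 0.387%.

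The 8 genes that start within 1 Mb of Mib1 are Thoc1, Usp14, Rock1, Greb1l, Esco1, Snrpd1, Abhd3 and Rbbp8, all of them tested. They include a proteasome-bound deubiquitinase (Usp14), a cohesin acetyltransferase (Esco1) and a phospholipase (Abhd3), which starts closest to Mib1. Their differences ran from -0.08 to 0.19 between Mib1 mutant and Cre control, with a smallest edgeR adjusted p of 0.834, and from -0.19 to 0.23 in the triple heterozygote against WT, with a smallest of 0.575. They ran wider in the Cre control against WT, from -0.59 to 0.10 (smallest 0.52), and from -0.42 to 0.16 between groups with and without Cre (smallest 0.22). Greb1l, a gene of kidney and inner ear development, gave the lowest value in both, and its Cre control pools (4.44, 3.1 and 4.6 CPM) lay below its WT pools (7.19, 5.05 and 6.08 CPM). None was called in any of the 7 comparisons made, beside 0.0215% to 2.56% of all genes. At such shares a count of 0 among 8 genes says little about them. The depth limits what could be seen for Abhd3, which lay at 1.15 to 2.61 CPM, and Greb1l, at 3.1 to 7.43 CPM. Snrpd1 had the widest scatter of the highly transcribed neighbours, with 55.3, 87.9 and 68.2 CPM in the Mib1 mutant pools.

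In the triple heterozygote the 4 genes with the smallest p all start more than 10 Mb from Mib1, Garem1 before Asxl3 and the other 3 beyond it. Zfp24, a zinc finger transcription factor, was at 84.2, 77.9 and 77.8 CPM in WT and 69.5, 65.2 and 72.5 in the triple heterozygote, which lay below WT in every pool. The difference was -0.21 (SE 0.07) at an edgeR adjusted p of 0.559. Fhod3 was at 277, 257 and 261 CPM in WT and 217, 222 and 237 in the triple heterozygote, again without overlap, a difference of -0.23 (SE 0.09, edgeR adjusted p 0.565). Garem1, an adaptor of growth factor signalling to Erk, was at 49.8, 42.9 and 42.2 CPM in WT and 31.5, 32.8 and 36.8 in the triple heterozygote, a difference of -0.42 (SE 0.17, edgeR adjusted p 0.565). Zfp397, another zinc finger protein, was at 64.2, 62.1 and 57.9 CPM in WT and 56.4, 48.3 and 54.8 in the triple heterozygote. It differed by -0.21 (SE 0.09, edgeR adjusted p 0.565), and none of the 4 was called under any of the 22 alternatives. Zfp24, Fhod3 and Garem1 were also below WT in every Cre control pool, by -0.22 (SE 0.07), -0.21 (SE 0.09) and -0.46 (SE 0.17). Their Mib1 mutant pools lay below WT as well, at 68.8 to 74.6, 192 to 247 and 22.9 to 41.7 CPM. For these genes WT thus stood above every pool of the other groups. The same WT pools are used each time, so these values are not separate evidence.

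Aqp4 was the exception in the stop allele comparisons. It encodes a water channel of the plasma membrane and starts 4.66 Mb from Mib1 (ENSMUSG00000024411; GRCm38 chromosome 18, 15389496 to 15410982). It was at 60.8, 54.2 and 50.7 CPM in the WT pools, 50.5, 46.1 and 52.3 in the triple heterozygote, 39, 37.6 and 41.6 in the Cre control and 55.9, 55.9 and 61.7 in the Mib1 mutant. The 3 Cre control pools lay below all other 9 pools, and the Mib1 mutant pools lay within or just above the range of WT. Aqp4 was higher in the Mib1 mutant than in the Cre control by 0.55 (SE 0.09) at an edgeR adjusted p of 0.00324, and stayed called under all 22 alternatives, at adjusted p of at most 0.0334.

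Against WT, Aqp4 was lower in the Cre control by -0.49 (SE 0.09, edgeR adjusted p 0.0217). It was the only 1 of the 49 genes called there, beside 0.279% of all genes. That call was lost without WT pool 1, without WT pool 2, without any 1 of the Cre control pools and without both pools with almost no Xist, at adjusted p of 0.0553 to 0.178. In the triple heterozygote Aqp4 differed from WT by -0.16 (SE 0.08, edgeR adjusted p 0.605). The difference between the stop allele effects sets Mib1 mutant minus Cre control against triple heterozygote minus WT. The second pair also differed by the Asxl3 and Apcdd1 missense alleles, which cannot be told apart from the stop allele here. For Aqp4 it was 0.71 (SE 0.12, edgeR adjusted p 0.0152), the only 1 called among the 49 genes, beside 0.516% of all genes. At an unadjusted p under 0.05 there were 6 of the 49 (12.2%), beside 13.8%. The call of Aqp4 was lost without triple heterozygote pool 2 (0.0534), without Mib1 mutant pool 3 (0.0501) and without both pools with almost no Xist (0.0574). The Cre control entered all 3 comparisons that called Aqp4, so they are not independent of each other.

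Markers of several cell types also differed between the Mib1 mutant and the Cre control. The summed level of the 10 cardiomyocyte markers was 39812 to 49471 CPM in Mib1 mutant pools and 49537 to 55055 in Cre control pools, and none of the 10 was called. That of the 6 leukocyte markers was 37.8 to 50.1 CPM against 60.8 to 80.3, with 2 of the 6 called lower. Fibroblast sums were 4631 to 5733 CPM against 4222 to 4286 and epicardial sums 174 to 183 against 154 to 168, with none of 6 called in either list, and 1 of 6 smooth muscle and pericyte markers was called higher. In the difference between the stop allele effects, 5 of 6 erythroid markers were called lower (median -0.91), 1 of 6 leukocyte markers lower (median -0.96) and 1 of 6 smooth muscle and pericyte markers higher (median 0.21). In bulk tissue, fewer cells of a type and less RNA per cell cannot be told apart. The part of these differences in the result for Aqp4 was not tested.

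After Aqp4, the smallest p between Mib1 mutant and Cre control belonged to Slc39a6, Npc1 and Osbpl1a, none of them called. Slc39a6, a zinc transporter that starts 13.85 Mb from Mib1, measured 29, 27.4 and 31 CPM in the Cre control and 35.7, 36 and 37.2 in the Mib1 mutant. The Mib1 mutant pools lay above the 9 others, of which the highest was 31.1 CPM. The difference was 0.31 (SE 0.08) at an edgeR adjusted p of 0.0693. Osbpl1a, an oxysterol-binding protein of late endosomes, measured 94.5, 102 and 92.9 CPM in the Cre control and 88.6, 83.1 and 83.3 in the Mib1 mutant, a difference of -0.18 (SE 0.07, edgeR adjusted p 0.263). The values of Npc1 are given with the genes near Mib1.

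**Figure D2:**
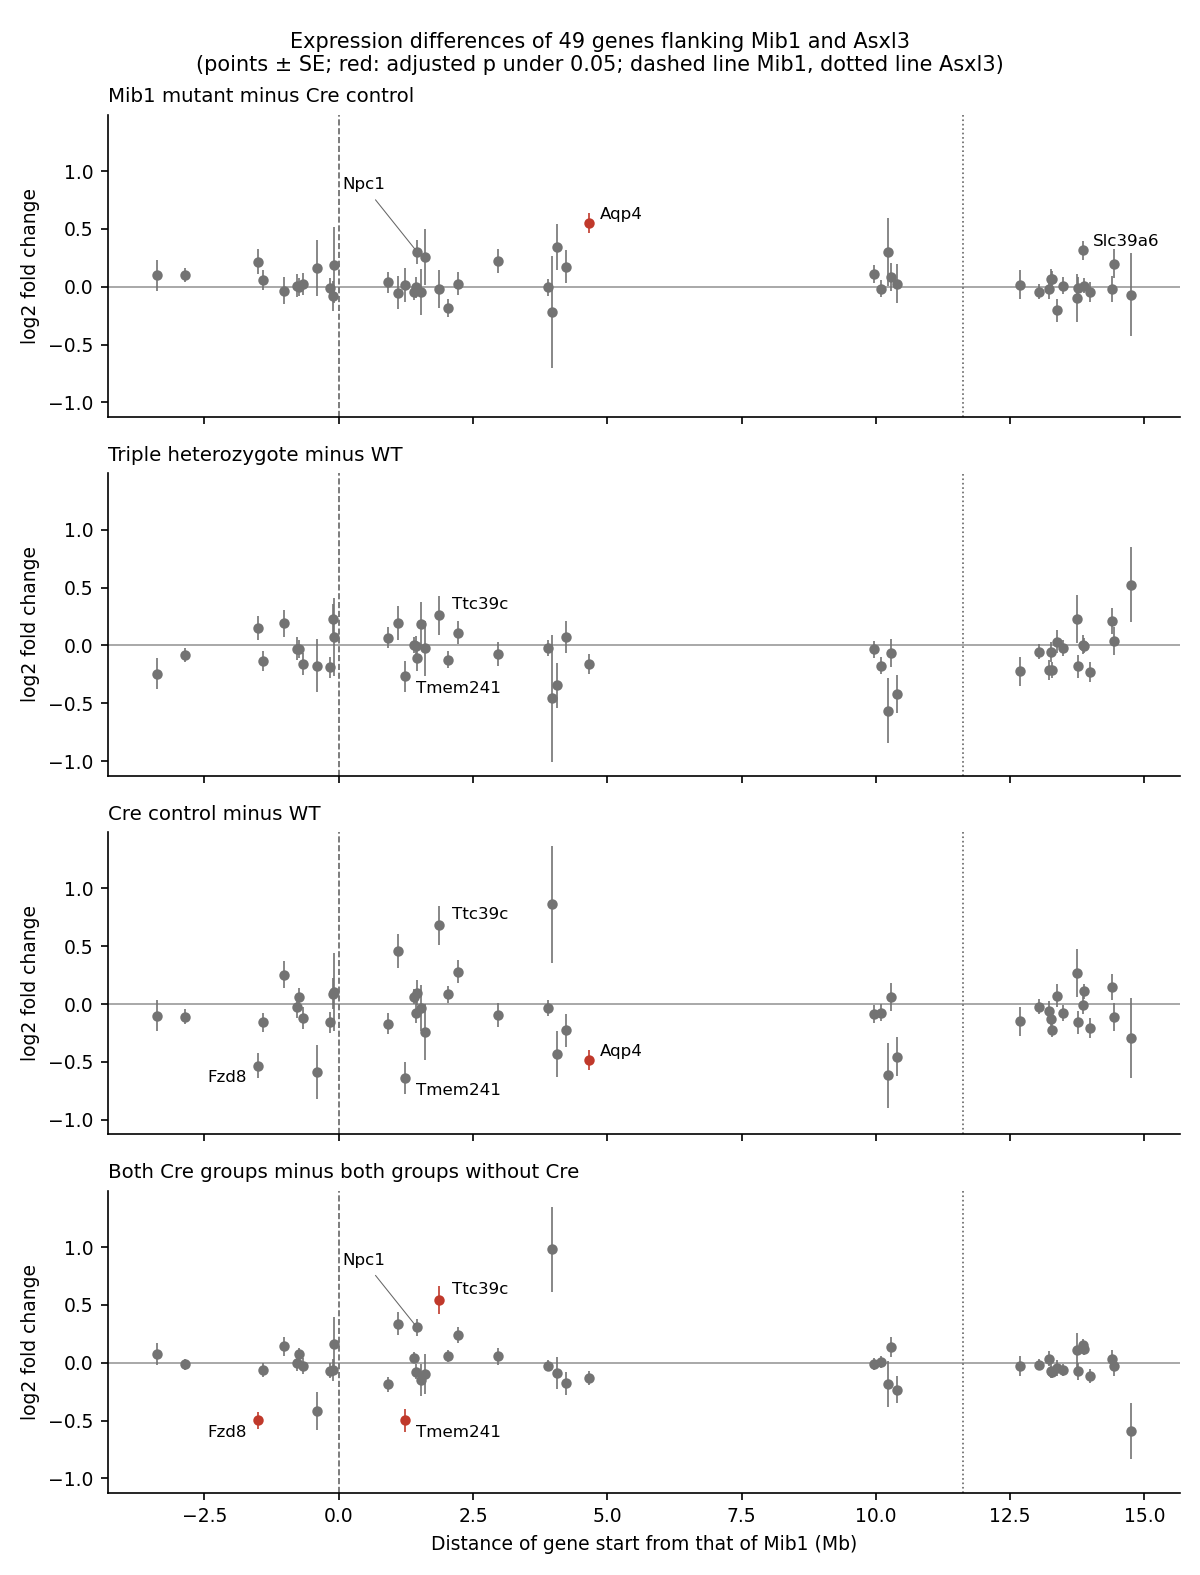
Log2 fold change (± SE) of the 49 tested genes against the distance of their start from that of Mib1 in Mb, in 4 comparisons, with called genes in red. Aqp4 was called in the Mib1 mutant against its control and in the Cre control against WT, and Fzd8, Tmem241 and Ttc39c, all within 2 Mb of Mib1, between groups with and without Cre.

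The second question was whether genes linked to the flox copy differ where that copy is present. In the mean of both Cre groups minus the mean of both groups without Cre, 3 of the 49 genes were called, beside 1.69% of all genes. Fzd8 and Tmem241 fell and Ttc39c rose, and all 3 start within 2 Mb of Mib1. At an unadjusted p under 0.05 there were 13, or 26.5% of the 49 beside 11.8% of all genes. The 6 pools with Cre lay wholly on 1 side of the 6 without it for 6 genes (4 higher: Npc1, Ttc39c, Impact and Elp2; 2 lower: Fzd8 and Tmem241), beside 1.02% of all genes, of which 0.687% higher and 0.337% lower. None of the flanking genes that started more than 2 Mb from Mib1 was called in this comparison. Outside the interval, 7 of 275 tested protein-coding genes of chromosome 18 were called higher and 2 lower.

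Fzd8 encodes a Frizzled receptor for Wnt ligands and starts 1.51 Mb before Mib1 (ENSMUSG00000036904; chromosome 18, 9212163 to 9218136). It was at 21.1, 22 and 25.8 CPM in WT, 22.2, 27.8 and 25.9 in the triple heterozygote, 15.3, 16.8 and 15.49 in the Cre control and 18.7, 17.8 and 18.8 in the Mib1 mutant. The 6 pools with Cre lay below the 6 without it. Fzd8 was lower with Cre by -0.50 (SE 0.08) at an edgeR adjusted p of 0.00204 and stayed called under all 21 alternatives, at adjusted p of at most 0.0147.

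The comparison splits into a pair of comparisons that share no pool. The Cre control was below WT by -0.53 (SE 0.11, edgeR adjusted p 0.0541), which passed in 5 of 22 alternatives, DESeq2 among them (0.0146). The Mib1 mutant was below the triple heterozygote by -0.46 (SE 0.11, edgeR adjusted p 0.0294). The second call was lost without triple heterozygote pool 2 or 3, without Mib1 mutant pool 1 or 3, without the pools with almost no Xist and in a fit of the 6 libraries compared alone, at adjusted p of 0.0659 to 0.139.

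Tmem241, a multi-pass membrane protein, starts 1.24 Mb after Mib1 (ENSMUSG00000049411; chromosome 18, 11964450 to 12121537). It was at 9.36, 9.18 and 9.86 CPM in WT, 8.35, 6.91 and 8.52 in the triple heterozygote, 6.09, 6.64 and 5.55 in the Cre control and 6.08, 5.78 and 6.55 in the Mib1 mutant. Both Cre groups were lower than all pools without Cre, and the triple heterozygote lay between them and WT. The difference was -0.50 (SE 0.10, edgeR adjusted p 0.0155), with -0.64 (SE 0.14, edgeR adjusted p 0.0787) in the Cre control against WT and -0.36 (SE 0.14, edgeR adjusted p 0.222) in the Mib1 mutant against the triple heterozygote. The call was lost without WT pool 3 (0.0505), without Cre control pool 3 (0.0511) and without both pools with almost no Xist (0.0586).

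Ttc39c, a tetratricopeptide repeat protein, starts 1.87 Mb after Mib1 (ENSMUSG00000024424; chromosome 18, 12599896 to 12738863). It was at 3.99, 3.12 and 3.95 CPM in WT, 4.08, 5.02 and 3.96 in the triple heterozygote, 5.8, 6.11 and 5.82 in the Cre control and 6.27, 5.69 and 5.52 in the Mib1 mutant. All 6 pools with Cre lay above the 6 without it. The difference was 0.54 (SE 0.12, edgeR adjusted p 0.0291), with 0.68 (SE 0.17, edgeR adjusted p 0.157) and 0.40 (SE 0.17, edgeR adjusted p 0.246) in the comparisons that share no pool. The call was lost in 11 of 21 alternatives, at edgeR adjusted p of 0.0546 to 0.114. Leaving out any 1 of the WT or Cre control pools, triple heterozygote pool 1 or 3, or Mib1 mutant pool 1 lost it. So did a covariate for the sex mix of the pools (0.0546) and leaving out both pools with almost no Xist (0.114).

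**Figure D3:**
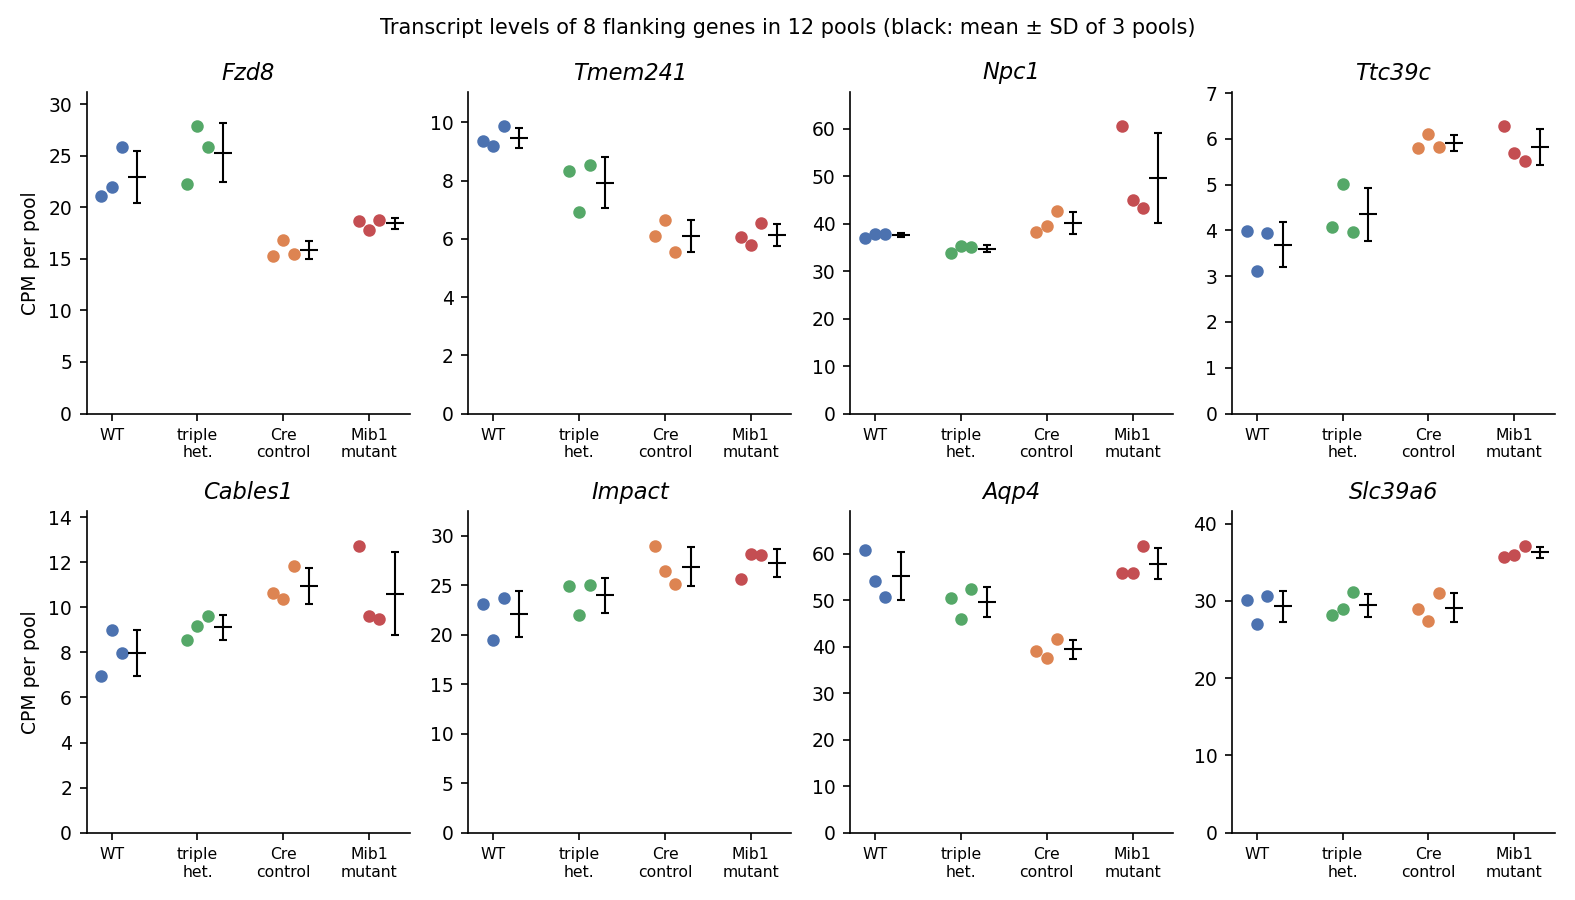
CPM in each of the 12 pools for 8 flanking genes, with the mean ± SD of 3 pools in black beside each group. Fzd8 and Tmem241 were lower and Ttc39c and Impact higher in all 6 pools with Cre, Aqp4 was lowest in the Cre control, and Slc39a6 was highest in the Mib1 mutant.

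Npc1, which exports cholesterol from late endosomes and lysosomes, starts 1.46 Mb after Mib1 (ENSMUSG00000024413; chromosome 18, 12189692 to 12236400). It was at 37.1, 37.9 and 37.8 CPM in WT, 33.9, 35.3 and 35.1 in the triple heterozygote, 38.3, 39.6 and 42.7 in the Cre control and 60.5, 45 and 43.4 in the Mib1 mutant. Pools with Cre lay above those without, by a narrow margin in the Cre control, and Mib1 mutant pool 1, which had almost no Xist, stood apart. The Mib1 mutant exceeded the triple heterozygote by 0.51 (SE 0.11, edgeR adjusted p 0.0158), and this was lost without triple heterozygote pool 1 (0.0685) or 2 (0.0601), without both pools with almost no Xist (0.056) and in the 6 libraries alone (0.0819). The Cre control differed from WT by 0.10 (SE 0.11, edgeR adjusted p 0.837). Between Mib1 mutant and Cre control, whose pools did not overlap, the difference was 0.30 (SE 0.11, edgeR adjusted p 0.189). It was 0.13 without Mib1 mutant pool 1 and 0.10 without both pools with almost no Xist. Both Cre groups differed from both without by 0.30 (SE 0.08, edgeR adjusted p 0.0572), which passed in 6 of 21 alternatives, with DESeq2 (0.0186) and without Mib1 mutant pool 1 (0.0498) among them. Npc1 shares 5.31% of its exonic bases with genes on the opposite strand, chiefly Rmc1. Rmc1, a subunit of the complex that activates Rab7, differed by -0.08 (SE 0.06, edgeR adjusted p 0.735) between groups with and without Cre.

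Impact, Cables1 and Rbbp8, on the same side of Mib1 as Tmem241 and Ttc39c, had smaller differences than either and no call. Psma8 (0.98) and Celf4 (-0.59), further out on that side, had larger ones, also without a call, at low levels with wide scatter within groups. Impact, an inhibitor of the stress kinase Gcn2 that is imprinted in the mouse and transcribed from the paternal copy, was at 19.5 to 25 CPM without Cre and 25.1 to 29 CPM with it. These ranges did not overlap, and the difference was 0.24 (SE 0.07, edgeR adjusted p 0.126). Cables1, an adaptor between kinases of the cell cycle, was at 6.93 to 9.61 CPM without Cre and 9.48 to 12.7 CPM with it, which overlap. It differed by 0.34 (SE 0.10, edgeR adjusted p 0.147), and 34.2% of its exonic bases are shared with genes on the opposite strand. Rbbp8, a DNA end resection factor, differed by -0.19 (SE 0.06, edgeR adjusted p 0.22). Impact and Cables1 were named after their values were seen. The groups also differed in erythroid markers, 5 of 6 of which were called lower in the groups with Cre. Their summed level was 7102 to 8319 CPM in the triple heterozygote, 4372 to 5143 in WT, 4417 to 5086 in the Cre control and 3534 to 4792 in the Mib1 mutant, and their part in these differences was not tested.

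In the Cre control against WT, 13 of the 49 genes (26.5%) had an unadjusted p under 0.05, beside 8.43% of all genes, and pools did not overlap for 23, 7 higher and 16 lower, beside 19.1% of all genes (8.9% higher and 10.2% lower). The smallest p after that of Aqp4 belonged to Fzd8, Tmem241 and Ttc39c. In the Mib1 mutant against the triple heterozygote, a comparison added after the data were seen, 2 genes were called (Fzd8 lower, Npc1 higher), beside 2.56% of all genes, and pools did not overlap for 8, 6 higher and 2 lower, beside 16.2% of all genes (8.39% higher and 7.83% lower). At an unadjusted p under 0.05 there were 8 of 49 (16.3%), beside 16.2% of all genes. These comparisons share no pool, but each sets a group with the flox copy and Tnnt2-Cre against one without. Their differences had Pearson's r = 0.53 across the 49 genes, beside 0.56 across all 13964 genes, and the same sign in 26 (53.1%), beside 45.3%. Across the 19 tested genes within 2 Mb of Mib1 r was 0.74, with the same sign in 13. Across the 10 genes from 2 to 5 Mb r was 0.70, with the same sign in 5. Psma8 had the largest difference of that band in both comparisons (0.86 and 1.10). Its mean level was 1.61 CPM, with a coefficient of variation within groups of 54.2%, and r without it was not tested. Across the 19 genes beyond 10 Mb r was 0.07, with the same sign in 8. Genes of 1 library set are not independent, so these coefficients describe the genes and carry no p.

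**Figure D4:**
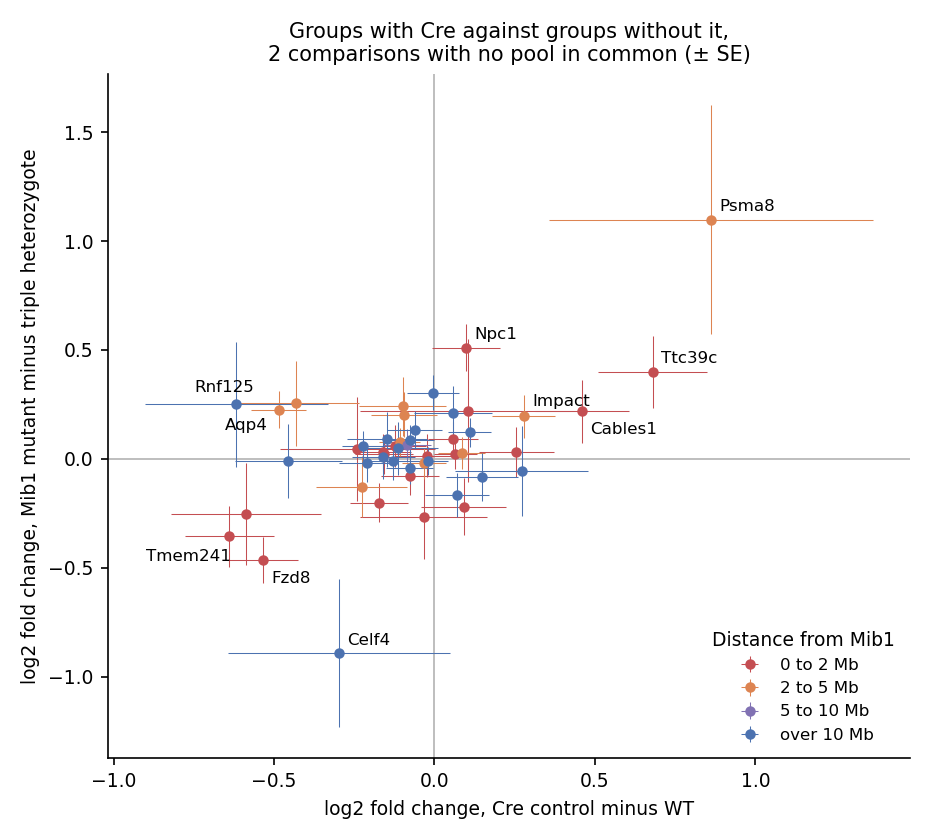
Log2 fold change (± SE) of the 49 tested genes in the Mib1 mutant minus the triple heterozygote against that in the Cre control minus WT, coloured by distance from Mib1. Genes within 2 Mb spread along the diagonal (r = 0.74 over 19 genes), from Tmem241 and Fzd8 at the lower left to Ttc39c at the upper right, while those beyond 10 Mb did not (r = 0.07 over 19 genes). From 2 to 5 Mb r was 0.70 over 10 genes, with the same sign in 5. Psma8, of low level and wide scatter, had the largest difference of that band in both comparisons. Across all 13964 genes r was 0.56.

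By distance, 19 of 21 genes were tested from 0 to 2 Mb, 10 of 14 from 2 to 5 Mb, 1 of 9 from 5 to 10 Mb and 19 of 25 beyond 10 Mb. The single gene from 5 to 10 Mb was B4galt6, a lactosylceramide synthase, so that stretch, which holds the desmosomal cadherins, says little. Between groups with and without Cre the median size of the difference, sign removed, was 0.14 from 0 to 2 Mb, 0.08 from 2 to 5 Mb and 0.08 beyond 10 Mb, beside 0.07 over all genes. For the Mib1 mutant set against the Cre control the order was different, with 0.04, 0.18 and 0.04 beside 0.12. In the triple heterozygote against WT it was 0.15, 0.12 and 0.18 beside 0.11. In the Cre control against WT it was 0.16, 0.17 and 0.13 beside 0.10, and in the Mib1 mutant against the triple heterozygote 0.20, 0.20 and 0.08 beside 0.13, so in both of these the genes from 2 to 5 Mb had a median close to that of the nearest band. Over the 49 genes, size and distance had r = -0.19 between groups with and without Cre, -0.18 in the Cre control against WT, -0.07 between Mib1 mutant and Cre control and 0.11 in the triple heterozygote against WT. Size did not follow distance closely in any of them.

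**Figure D5:**
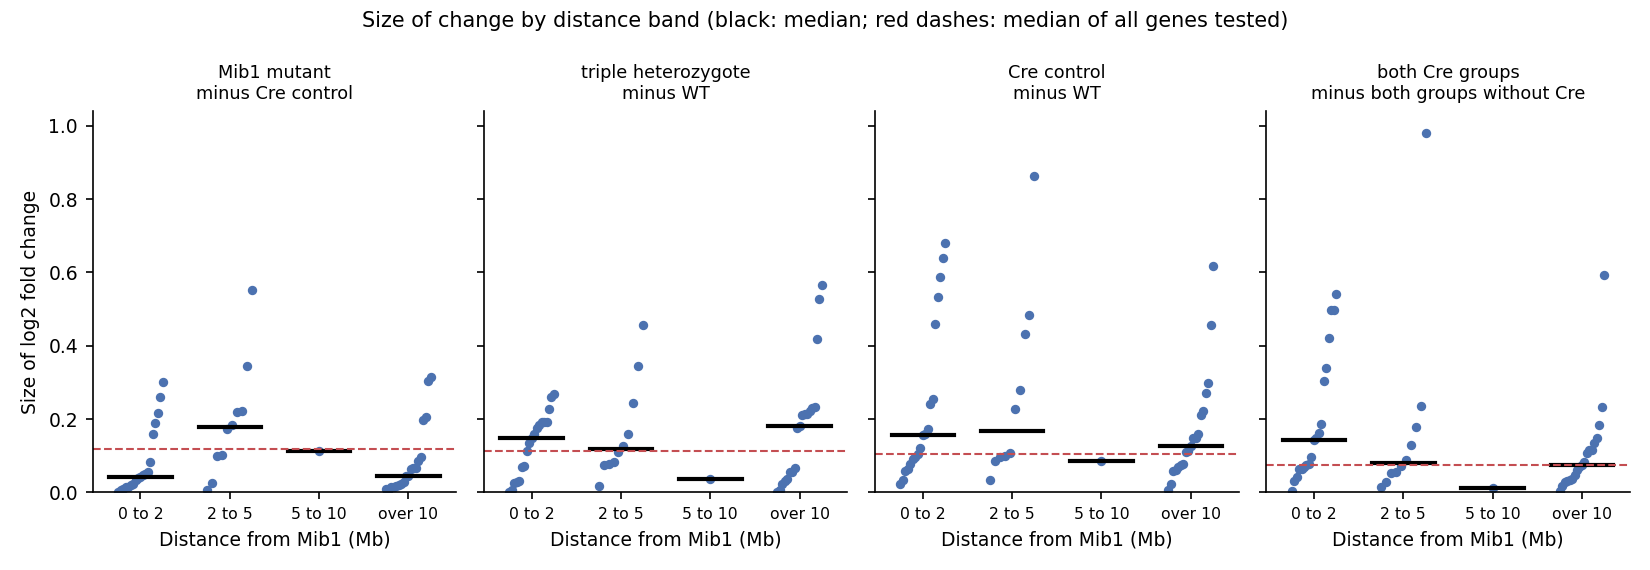
Size of the log2 fold change of each tested gene by distance band from Mib1 in 4 comparisons, with the median of the band in black and the median of all 13964 genes as a red dashed line. Between groups with and without Cre the median was 0.14 within 2 Mb and 0.08 beyond 10 Mb, against 0.07 for all genes, and between Mib1 mutant and Cre control it was 0.04 in both.

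The rest of chromosome 18 gives the measure for these counts. Of 275 tested protein-coding genes outside the interval, 7 were called higher and 2 lower between groups with and without Cre, and of 55 within 5 Mb of Apcdd1, 3 were called higher. Of all 355 tested genes of the chromosome 13 were called (3.66%), beside 1.69% of all genes. That was the highest share of the 20 chromosomes listed, followed by chromosome 17 with 22 of 647 (3.40%), and the other 18 ran from 0.808% to 2.95%. The 355 genes include Mib1 itself, the gene with the flox allele. Its mean was 105 CPM in the Cre control against 136 in WT, and 52.2 in the Mib1 mutant against 68.7 in the triple heterozygote. The shares of chromosomes 18 and 17 are so close that a single called gene decides their order. That order without Mib1 was not tested, so the first place of chromosome 18 may rest on Mib1. Mkx, a homeobox gene of tendon on the minus strand (6934518 to 7004780), has its lower coordinate just outside the interval, 3.79 Mb before Mib1. Mkx was at 0 to 0.892 CPM without Cre and 0.603 to 1.33 CPM with it. It differed by 2.13 (SE 0.52, edgeR adjusted p 0.0554) and rested on 88 estimated reads in all 12 pools.

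The role lists were set with earlier results known. Of the 3 genes called between groups with and without Cre, Fzd8 was 1 of 12 listed under signalling. Tmem241 (lower) and Ttc39c (higher) were 2 of 7 listed under membrane traffic and lipid handling, beside 1.69% of all genes. Whether Tmem241 and Ttc39c act in that role was not tested, so the count shows no shared function. None of the 17 genes for transcription, chromatin, RNA and DNA repair was called in any of the 7 comparisons. The same held for the 4 glycosylation and matrix genes, the 3 of cytoskeleton and cilia, and the 1 cell junction gene (Mpp7). Of all genes, 0.0215% to 2.56% were called in these comparisons, so counts of 0 in lists this short do not set the roles apart. Without Mib1 mutant pool 2, Celf4 was called in 2 of the 7 comparisons (both Cre groups against both without, and Mib1 mutant against triple heterozygote) and Snrpd1 in the latter. In that setting 1.96% and 5.52% of all genes were called in these comparisons. Of the 2 transport genes, Aqp4 was called in the comparisons given above and Slc39a6 in none. With the replicate number as a block, Slc39a6 was called between Mib1 mutant and Cre control (edgeR adjusted p 0.0412) and between Mib1 mutant and triple heterozygote (0.0383). Taf4b, a subunit of the transcription factor TFIID, and Rnf125, a ubiquitin ligase, had lower values in both the triple heterozygote and the Cre control than in WT without a call, in comparisons that share the WT pools. Taf4b was at 5.37, 4.8 and 5.18 CPM in WT, 4.26, 3.66 and 4.26 in the triple heterozygote and 4.44, 3.01 and 3.92 in the Cre control, while the Mib1 mutant pools (5.7, 3.92 and 4.83 CPM) overlapped with WT. For Rnf125 these were 4.68, 3.62 and 4.11, then 3.09, 2.58 and 2.77, then 3.58, 2.13 and 2.43 CPM, and the Mib1 mutant pools (4.66, 1.96 and 3.36 CPM) again overlapped with WT.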

How the data were processed

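Pooled ventricles were sequenced in 12 libraries (4 genotypes, 3 pools each) as single reads of 60 bases from a strand-specific kit, per the labels' protocols. The authors deposited 1 table of expected counts, which are estimates and can be fractional; the submitters' processing notes name RSEM, cutadapt, bcl2fastq 2.20.0.422, limma and GRCm38, without roles. The aligner, the annotation release and the use of strand in counting were not given in the sources used here. Of the values, 9.64% were not whole, among them at least 1 value of 8 of the 49 tested flanking genes, and 14 of the 49 share exonic bases with another gene on the opposite strand. Columns were assigned to genotypes from their names, and those named as mutant were assigned to the triple heterozygote by elimination. All 12 columns were used and 0 left out.

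Genes were placed with GENCODE M21, which held 36429 of the 38293 identifiers. Expected counts were rounded and tested in R 4.3.3 with edgeR 4.0.16 (TMM scaling, filterByExpr, 1 quasi-likelihood fit over 4 groups with 8 residual degrees of freedom, two-sided, Benjamini-Hochberg over 13964 genes, threshold 0.05). CPM values use TMM-scaled library totals, and the SE is the log2 fold change divided by the square root of F. Library totals were 10103548 to 22157720, so 1 read is 0.0452 to 0.0991 CPM and levels below about 1 CPM rest on few reads. Replicate pairs differed by more than sampling noise.

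The 69 genes, the role lists and the tests were chosen with earlier results of these data known. Named genes were those called, the 4 with the smallest p in each of the first 3 comparisons, those starting within 1 Mb of Mib1 or Asxl3, the 5 with the highest CPM per kb, the nearest tested genes at each end, and Ttr. Celf4, Psma8, Rnf125, Taf4b, Elp2, Rmc1, Ss18 and the genes listed by their ratio of group means were named after their values were seen. Alternatives were median-ratio size factors, no filter, a mean of at least 2 CPM, limma-voom (limma 3.58.1), DESeq2 1.42.0, a block for the replicate number, a covariate for the sex mix, protein-coding genes alone, the compared libraries alone and each pool left out. Leaving out both pools with almost no Xist, and the comparison of the Mib1 mutant with the triple heterozygote, were chosen after seeing the data. Scripts were tested on simulated data. Cell type markers were 11 lists of 5 to 10 genes; of those other than the cardiomyocyte, leukocyte and erythroid lists the summed levels over all pools were 774 to 1266 CPM (atrial), 851 to 1054 (endothelial), 3780 to 6120 (fibroblast), 153 to 208 (epicardial), 1389 to 2089 (smooth muscle), 0.373 to 22.6 (liver), 4.74 to 7.33 (surface epithelium) and 4.35 to 7.55 (neuron).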

Additional observations from a re-analysis of the deposited data

Results flagged for a closer look

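Aqp4 stood out because its difference between Mib1 mutant and Cre control departed from that between triple heterozygote and WT by a direct test. The departure was 0.71 on the log2 scale (SE 0.12, edgeR adjusted p 0.0152). These pairs did not differ by the stop allele alone. The second pair also differed by the Asxl3 and Apcdd1 missense alleles, and in the first the stop allele lay over a flox copy exposed to Cre. These parts cannot be told apart. The Mib1 mutant pools lay above the Cre control pools in 3 of 3 cases (55.9, 55.9 and 61.7 against 39, 37.6 and 41.6 CPM), while the triple heterozygote pools (50.5, 46.1 and 52.3 CPM) overlapped with WT (60.8, 54.2 and 50.7 CPM). Over 21 alternatives the difference ran from 0.64 to 0.77, and 18 of them kept the call. In the same comparison 5 of 6 erythroid markers and 1 of 6 leukocyte markers were called lower and 1 of 6 smooth muscle and pericyte markers higher, and their part in the result was not tested.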

How the results depend on the processing

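Alternatives were followed for genes called in any comparison, the 4 with the smallest p in each of the first 3, Rbbp8, Cables1 and Impact. Only comparisons where such a gene had an unadjusted p under 0.05 entered, and Mkx only between groups with and without Cre. None of these changed direction, and 875 values stayed on the same side of the threshold, 18 newly passed and 33 no longer passed. They were picked for a small p, so a kept direction says little. The direction of the other named genes was not followed. The count of flanking genes called in the triple heterozygote against WT, and in both stop allele groups against both without, was 0 under every alternative. With the replicate number as a block, 2 genes were called between Mib1 mutant and Cre control (Aqp4 and Slc39a6) and 2 in the Cre control against WT (Aqp4 and Fzd8), beside 2.28% and 0.423% of all genes, and 3 in the Mib1 mutant against the triple heterozygote (Fzd8, Npc1 and Slc39a6), beside 3.59%. Pools with the same number in different groups had correlations of their deviations from group means of -0.105 to 0.256. Between Cre control and Mib1 mutant these were 0.139, 0.256 and 0.049 for pools 1, 2 and 3, beside -0.263 to 0.162 for pools of different number. Whether pools with the same number shared a batch or litter was not tested. In the Cre control against WT, 2 genes were also called with DESeq2, with median-ratio size factors and without a low-count filter, beside 0.587%, 0.337% and 0.644% of all genes. Without both pools with almost no Xist the counts were 0 in the Cre control against WT, 0 for the difference between effects, 1 (Fzd8) between groups with and without Cre, and 0 in the Mib1 mutant against the triple heterozygote, where the compared libraries alone also gave 0. The shares of all genes called without these pools were 0.319%, 0.291%, 1.31% and 1.43%, and the compared libraries alone gave 1.31%. Leaving out 1 pool at a time gave 0 to 2 in the Cre control against WT, 0 to 1 for the difference, 1 to 5 between groups with and without Cre and 0 to 4 in the Mib1 mutant against the triple heterozygote. The shares of all genes called were 0.162% to 0.325%, 0.197% to 1.64%, 1.09% to 1.96% and 1.48% to 5.52%. In the last 2 comparisons the highest count and the highest share both came without Mib1 mutant pool 2. The cause of these changes was not tested. A fit of the compared libraries alone gives no value for comparisons that use all 4 groups. Depth limits genes near or below 1 CPM, and the 3 genes within 1 Mb of Asxl3 could not be tested.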
